A study of Mus musculus with 5 samples.

Results

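The regions described here are sites in mouse gliomas that carried trimethylated lysine 4 of histone H3 (H3K4me3) in Olig2cKO and in control tumours, but acetylated lysine 27 of histone H3 (H3K27ac) in Olig2cKO tumours alone. Peaks of the 4 histone lists that overlapped or touched were merged into regions on chromosomes 1 to 19. A member had an H3K4me3 peak from each genotype, an H3K27ac peak from Olig2cKO tumours, no H3K27ac peak from control tumours and no overlap with an Olig2 peak. Members were thus chosen by which peaks these libraries list, and the H3K27ac difference is a description with no test. The rule found 1876 members among 89204 regions. Of the 36777 regions with H3K4me3 in both genotypes, 15046 had no Olig2 peak, and the members were 12.5% of these (95% exact binomial interval 11.9 to 13.01, counting error only).

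The gliomas were induced by a PDGFB virus in mice of mixed C57Bl/6;129Sv;CD-1 background and taken 25 days after injection. Olig2cKO tumours carried floxed Olig2 and floxed P53, and control tumours floxed P53 without floxed Olig2, so the P53 alleles were shared and floxed Olig2 was the labelled difference. The 5 ChIP-seq libraries were H3K27ac in Olig2cKO and in control tumours, H3K4me3 in Olig2cKO and in control tumours, and Olig2 in control tumours. Each group had 1 library, the number of tumours behind it and the cells that the virus infected are not given in the labels used here, and the loss of Olig2 was not checked because Olig2 was mapped in control tumours. Each contrast of genotypes below sets 1 library beside another, so no replicate spread and no p-value can be given.

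H3K4me3 is deposited by the SET1 and MLL methyltransferase complexes and sits mainly around the start sites of active or poised genes. H3K27ac is deposited by CBP and its relative EP300 and marks promoters and enhancers in use, so a promoter that carries H3K4me3 without H3K27ac is often one that is accessible but weakly used. Olig2 is a transcription factor of the oligodendrocyte lineage that neural progenitors and many gliomas express, and PDGFB is a ligand of the PDGF receptors that drive division of oligodendrocyte precursors. Members are given by position on the build mm9, counted from 1, because gene positions on that build were not used here.

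Acetylation was listed in Olig2cKO tumours and not in control tumours at 23.1% of all 89204 regions and at 8.08% of the 36777 regions with H3K4me3 in both genotypes, a contrast that the rule itself used. Among the 15046 regions without Olig2, 5938 (39.5%, 38.7 to 40.3) were acetylated in both genotypes, 6400 (42.5%, 41.7 to 43.3) in neither, and 832 (5.53%, 5.17 to 5.91) in control tumours alone. Members thus outnumbered the mirror class 2.25 to 1. The H3K27ac list of Olig2cKO tumours held 67928 peaks on these chromosomes and that of control tumours 55323. With the lists of each mark cut to equal length, 8.57% of regions were acetylated in Olig2cKO tumours alone and 8.72% in control tumours alone, so the excess of members over the mirror class was not kept. With every list cut to its upper 50%, 1059 regions met the rule, and 122 of the 1876 members (6.50%) lay among them.

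The acetylated peaks of the members were weak in their own list. Their score, which the authors' peak caller assigned, had a median of 98.5, against 219.9 in the same list for regions acetylated in both genotypes. As a percentile of all Olig2cKO H3K27ac scores on chromosomes 1 to 19, the median member stood at 29.1 and the median region acetylated in both at 60.2. The upper 50% of the list held 412 members (21.96%, 20.1 to 23.9), and its highest 10% held 10 (0.533%, 0.256 to 0.978). In the mirror class, the control peak lay in the upper 50% of the control list in 118 of 832 regions (14.2%, 11.9 to 16.7) and in the highest 10% in 0. These scores belong to the contrast that chose the members and only describe them.

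Merging peaks that meet largely fixes that acetylation overlaps H3K4me3, so the overlap describes the members and is no finding. In 1875 of 1876 members the Olig2cKO H3K27ac peak overlapped Olig2cKO H3K4me3, and in 1848 (98.5%) it overlapped control H3K4me3. The midpoint of the acetylated peak fell inside Olig2cKO H3K4me3 in 1773 members (94.5%, 93.4 to 95.5) and inside control H3K4me3 in 1648 (87.8%, 86.3 to 89.3). In regions acetylated in both genotypes the midpoint shares were 92.1% and 87.9%, so members did not stand far from them.

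The acetylated stretch of members was shorter than in regions acetylated in both genotypes and about as short as in the mirror class. Its median width was 1017 bp in members and 1632 bp, in the same Olig2cKO list, in regions acetylated in both genotypes, and 981 bp, in the control list, in the mirror class. In 942 members (50.2%, 47.9 to 52.5) acetylation ended inside the H3K4me3 peaks on both sides, in 632 (33.7%) it ran past them on 1 side, and in 302 (16.1%, 14.5 to 17.8) on both sides. For regions acetylated in both genotypes the same shares were 35.4%, 30.5% and 34.1%, and in the mirror class, with control acetylation, 46.6%, 31.4% and 21.995%. Of the 2317 kb acetylated in members, 63.8% carried H3K4me3 in both genotypes, 16.2% in Olig2cKO tumours alone, 0.867% in control tumours alone and 19.2% in neither. Most members were simple, with 1 peak from each list present in 1728 of 1876 (92.1%, 90.8 to 93.3).

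**Figure D1:**
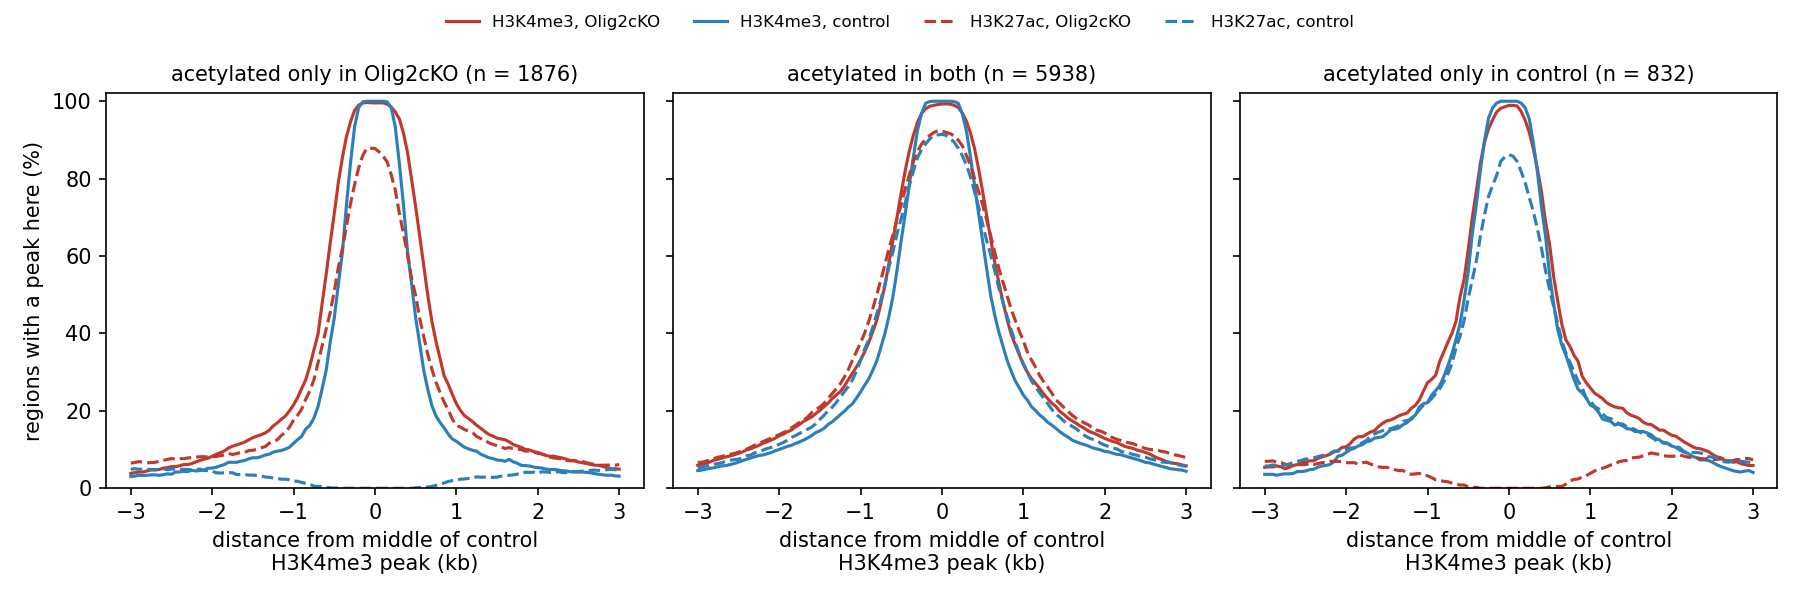
Share of regions with a listed peak (vertical axis, %) at each distance from the middle of the strongest control H3K4me3 peak (horizontal axis, kb), for members, regions acetylated in both genotypes and regions acetylated only in control. Solid lines are H3K4me3 and dashed lines H3K27ac, in red for Olig2cKO and blue for control tumours; at 1 kb to the right, Olig2cKO H3K4me3 covered 21.9% of members and control H3K4me3 12.2%.

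H3K4me3 peaks of members ranked higher and were wider in the Olig2cKO than in the control list, and by more than in the other classes. The rule asked only that H3K4me3 be present in each genotype, not how strong or wide it was. It did choose members by acetylation in Olig2cKO tumours alone, and the mirror class holds the opposite contrast. How far that choice itself favours a higher H3K4me3 rank or width in Olig2cKO tumours was not tested. The median H3K4me3 score was 436.9 in the Olig2cKO list and 230.5 in the control list. Since scores are not scaled between libraries, percentiles within each list were compared. The Olig2cKO H3K4me3 list held 47634 peaks on chromosomes 1 to 19 and the control list 43472, and this difference in length enters the percentiles. The median member stood at the percentile 57.4 of the Olig2cKO list and 39.7 of the control list. Paired within members, the median difference (Olig2cKO minus control) was 13.3 points, with an order-statistic interval of 12.7 to 14.0. It was 3.10 points over all 36777 regions with H3K4me3 in both genotypes.

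The other classes moved less. The median difference was 7.39 points (6.97 to 7.77) in regions acetylated in neither genotype, 3.96 (3.59 to 4.25) in regions acetylated in both and 0.865 (0.376 to 1.67) in the mirror class. With the lists of each mark cut to equal length, it was 11.3 points in members, 3.85 (3.48 to 4.22) in regions acetylated in neither, 1.20 (0.95 to 1.54) in regions acetylated in both and -1.40 (-2.10 to -0.849) in the mirror class, so every value was lower and that of the mirror class changed sign. With the present acetylated peak required to lie in the upper 50% of its list, members were at 20.5 points and the mirror class at -3.07 (-6.91 to 0.376). A percentile at least 20 points higher in Olig2cKO tumours was found at 10.7% of all regions with H3K4me3 in both genotypes, and at 630 of 1876 members (33.6%, 31.4 to 35.8). A percentile at least 20 points lower was found at 2.68% of all those regions and at 22 members (1.17%, 0.736 to 1.77). In the mirror class the shares were 5.89% higher and 7.21% lower.

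Members also had the largest median width difference of the 4 classes, although the order of the other classes was not that of the percentiles. H3K4me3 covered a median of 1284 bp per member in Olig2cKO tumours and 947 bp in control tumours, and the median paired difference was 293 bp (280 to 309). The paired difference was 186 bp in regions acetylated in both genotypes, 167 bp in those acetylated in neither, 73.5 bp in the mirror class and 164 bp over all regions with H3K4me3 in both genotypes. H3K4me3 was wider in Olig2cKO tumours at 1697 members (90.5%, 89.0 to 91.8). It was also wider there at 79.9% of regions acetylated in both, 81.1% of those acetylated in neither and 66.3% of the mirror class. It was at least 1.5-fold wider there at 583 members (31.1%, 29.0 to 33.2), against 14.3% of all regions with H3K4me3 in both genotypes, and at least 1.5-fold wider in control tumours at 8 members (0.426%), against 1.64%. The control H3K4me3 peak lay wholly inside Olig2cKO H3K4me3 in 1407 members (75%, 72.98 to 76.9), in 57.5% of regions acetylated in both, in 61.6% of those acetylated in neither and in 45.8% of the mirror class.

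Width is not fully independent of the rule, because a wide Olig2cKO H3K4me3 peak has more room to meet an Olig2cKO H3K27ac peak. The part of that geometry in the result was not tested. Of the stretch that carried H3K4me3 in both genotypes, 72.4% was acetylated in members. Of the 811 kb that carried H3K4me3 in Olig2cKO tumours alone, 46.2% was acetylated, so a smaller share of it was acetylated than of the shared stretch. The same 2 shares were 79.5% and 55.6% in regions acetylated in both. With control acetylation they were 69.9% and 41.0% in the mirror class, so the lower share was not particular to members.

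**Figure D2:**
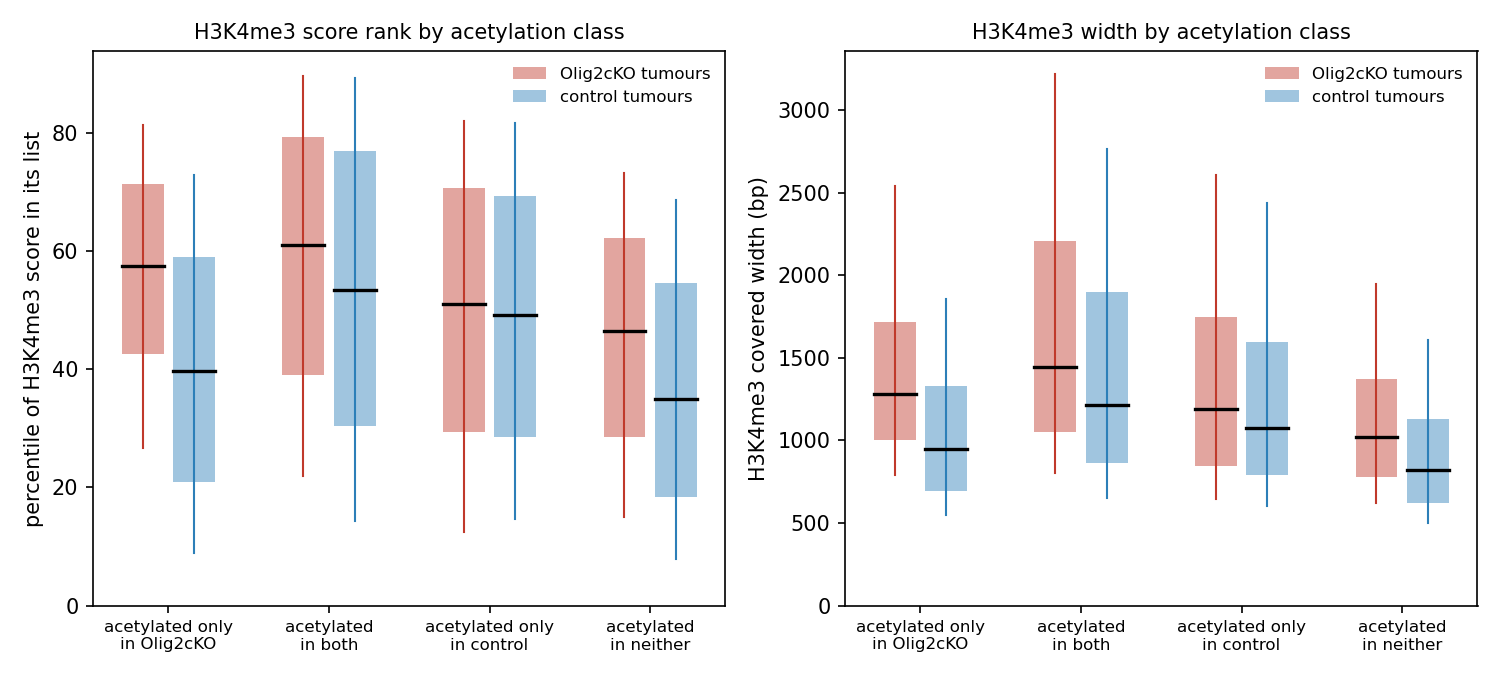
H3K4me3 of Olig2cKO (red) and control tumours (blue) in the 4 acetylation classes, as the percentile of the peak score within its own list (left) and as covered width in bp (right). Black lines are medians, boxes span the 25th to 75th and thin lines the 10th to 90th percentile of regions; the gap between genotypes is widest in members, with medians of 57.4 and 39.7 (left) and 1284 and 947 bp (right).

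Weak H3K4me3 peaks have more room to rise in rank, so members were also compared with regions of like control strength. Within each class members were still chosen by acetylation in Olig2cKO tumours alone, so the part of that choice in the difference was not tested. In each of 10 classes of equal size by control H3K4me3 score, the median percentile difference was higher in members than in regions acetylated in both, in neither and in control tumours alone. In the lowest class it was 28.4 points in members, 18.5 in regions acetylated in neither, 17.3 in regions acetylated in both and 11.52 in the mirror class. In the fifth it was 16.1, 8.47, 7.50 and 1.13 points in the same order. In the highest class the difference was 0.0355 points in members and -0.371 in regions acetylated in both. In 10 classes by control H3K4me3 width the median width difference was likewise larger in members in all 10, by 42 to 149 bp over regions acetylated in both.

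The share of members was nearly level over most of the range of control H3K4me3 strength. It was 14.3% (12.6 to 16.2) in the lowest score class, 14.5% in the fifth and 11.2% in the ninth, and 5.65% (4.54 to 6.94) in the highest. Regions acetylated in both genotypes took 25.7% of the lowest and 79.3% of the highest class, and regions acetylated in neither took 56.5% and 9.44%. In the highest class members and the mirror class held 85 regions each. Very broad H3K4me3 was rare among members, of which 47 (2.51%) had H3K4me3 over 4 kb or more in Olig2cKO tumours, against 4.78% of regions acetylated in both.

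**Figure D3:**
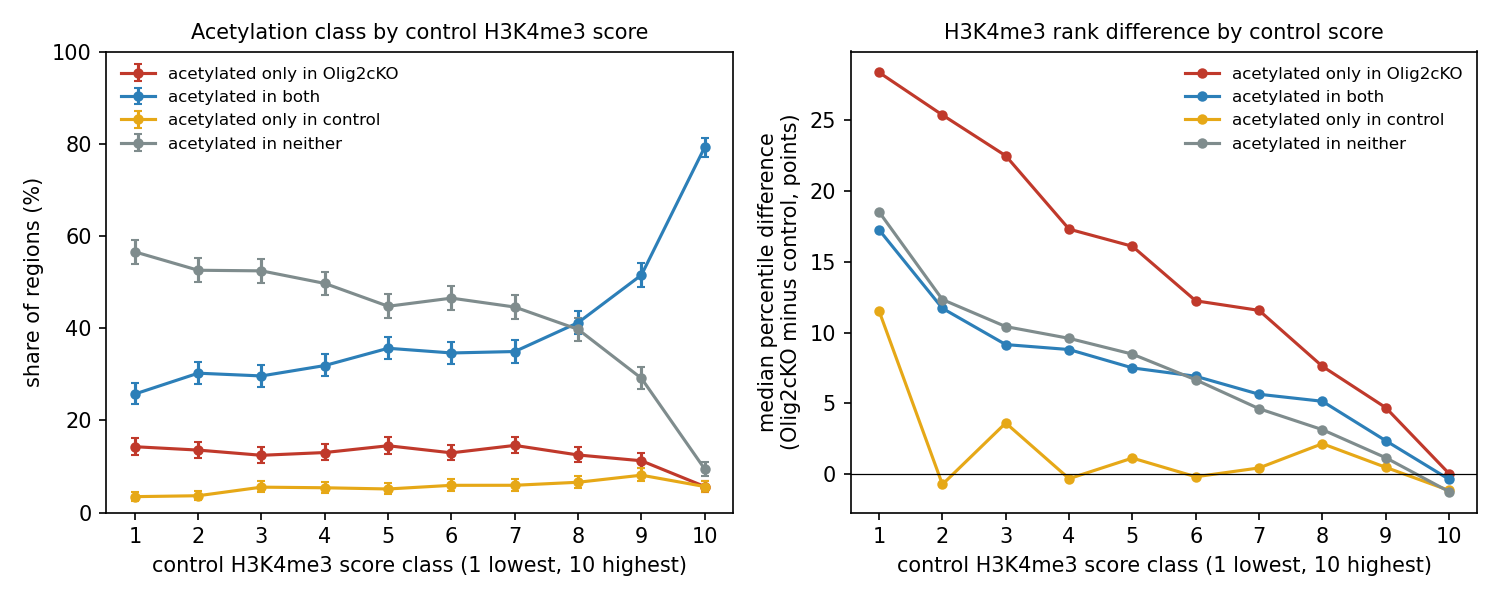
Regions with H3K4me3 in both genotypes and no Olig2, in 10 classes by control H3K4me3 score (horizontal axis). Left, share of each acetylation class in % with 95% exact binomial intervals; right, median H3K4me3 percentile difference in points (Olig2cKO minus control), where members (red) lie above the other classes in all 10 score classes.

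Within the members, a higher acetylation score went with a larger H3K4me3 difference. That score belongs to the contrast that chose the members, so the trend only describes them. The same split was not made in the other classes, so it cannot be called particular to members. Members were split into 4 groups of 469 by Olig2cKO H3K27ac score. The group with the highest scores ( 156.4 to 1741) had a median H3K4me3 percentile of 61.8 in Olig2cKO and 36.6 in control tumours, with a median paired difference of 20.2 points. The group with the lowest scores ( 50.0 to 67.7) had 54.8 in Olig2cKO and 41.1 in control tumours, with a paired difference of 10.4 points. H3K4me3 was at least 1.5-fold wider in Olig2cKO tumours in 42.2% of the highest and 25.2% of the lowest group. Across the 1876 members, Spearman's rho between the acetylation score and the percentile difference was 0.234, which describes regions of the same 3 libraries and is weak. With the H3K4me3 score alone, rho was 0.134 in the Olig2cKO list and -0.0469 in the control list.

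**Figure D4:**
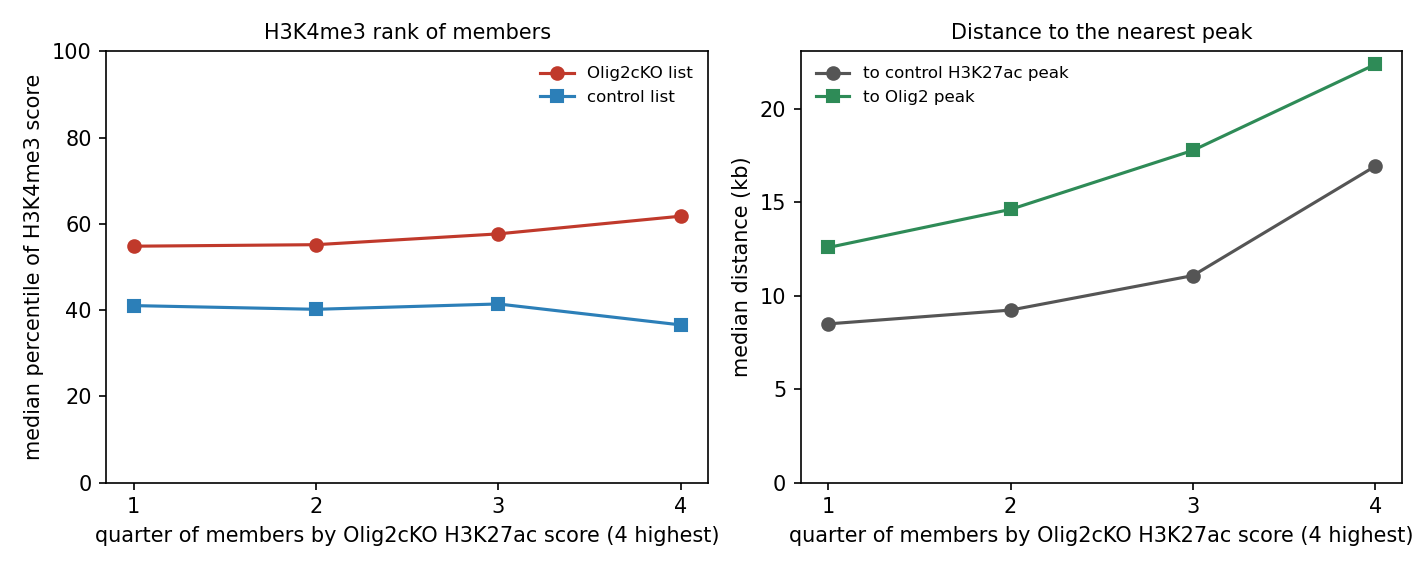
The 1876 members in 4 equal groups by Olig2cKO H3K27ac score (horizontal axis, 4 highest). Left, median H3K4me3 percentile in the Olig2cKO (red) and control list (blue), 61.8 and 36.6 in the highest group; right, median distance in kb to the nearest control H3K27ac peak (grey) and to the nearest Olig2 peak (green), both longest in the highest group.

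The 10 members with the highest Olig2cKO H3K27ac score were 1126 to 6281 bp long and stood at the percentile 91.3 or above of their list. The first lay at chr5:123588930-123592543, with an H3K27ac score of 1741 in Olig2cKO tumours. Its H3K4me3 was broad in both genotypes, 3614 bp in Olig2cKO and 3346 bp in control tumours, and it was the single one of the 10 whose H3K4me3 percentile was lower in Olig2cKO tumours, at 70.5 against 76.8. The second lay at chr14:62964466-62967232 (H3K27ac score 1163), with H3K4me3 of 2648 bp in Olig2cKO and 1370 bp in control tumours and percentiles of 85.1 and 59.3. At both of these sites the control H3K4me3 peak stood in the upper 50% of its list, with no listed acetylation.

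At several others control H3K4me3 covered much less than Olig2cKO H3K4me3. The tenth, at chr6:114081345-114084398 (H3K27ac score 704.5), had 3054 bp of H3K4me3 in Olig2cKO and 357 bp in control tumours, at the percentiles 77.5 and 16.5. The sixth, at chr18:60397809-60402551 (H3K27ac score 844.4), had 4468 bp in Olig2cKO and 927 bp in control tumours, at the percentiles 91.5 and 35.7, and its nearest Olig2 peak was 216.2 kb away. The fourth, at chr11:33890444-33894546 (H3K27ac score 1004), had 4103 bp in Olig2cKO and 1349 bp in control tumours, at the percentiles 81.2 and 43.7. Olig2cKO H3K27ac covered 2632 bp of the tenth, 4701 bp of the sixth and 3305 bp of the fourth.

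The eighth, at chr17:29660101-29661555, was compact, with 1455 bp of H3K4me3 in Olig2cKO and 731 bp in control tumours at the percentiles 86.3 and 32.5. The seventh, at chr7:116154501-116160781, ran the other way in width, with 4531 bp in Olig2cKO and 6281 bp in control tumours, although its percentile was higher in Olig2cKO tumours, at 78.8 against 61.9. The remaining 3 lay at chr2:50937422-50939820 and chr2:126275260-126277239, and at chr18:76556576-76557701. H3K4me3 was wider in Olig2cKO tumours at 9 of the 10 and higher in rank at 9 of the 10. Over all 1876 members it was wider at 90.5% and higher in rank at 83.7%, so these counts are not particular to the 10. The nearest control H3K27ac peak was 3.58 to 142.4 kb from the 10.

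**Figure D5:**
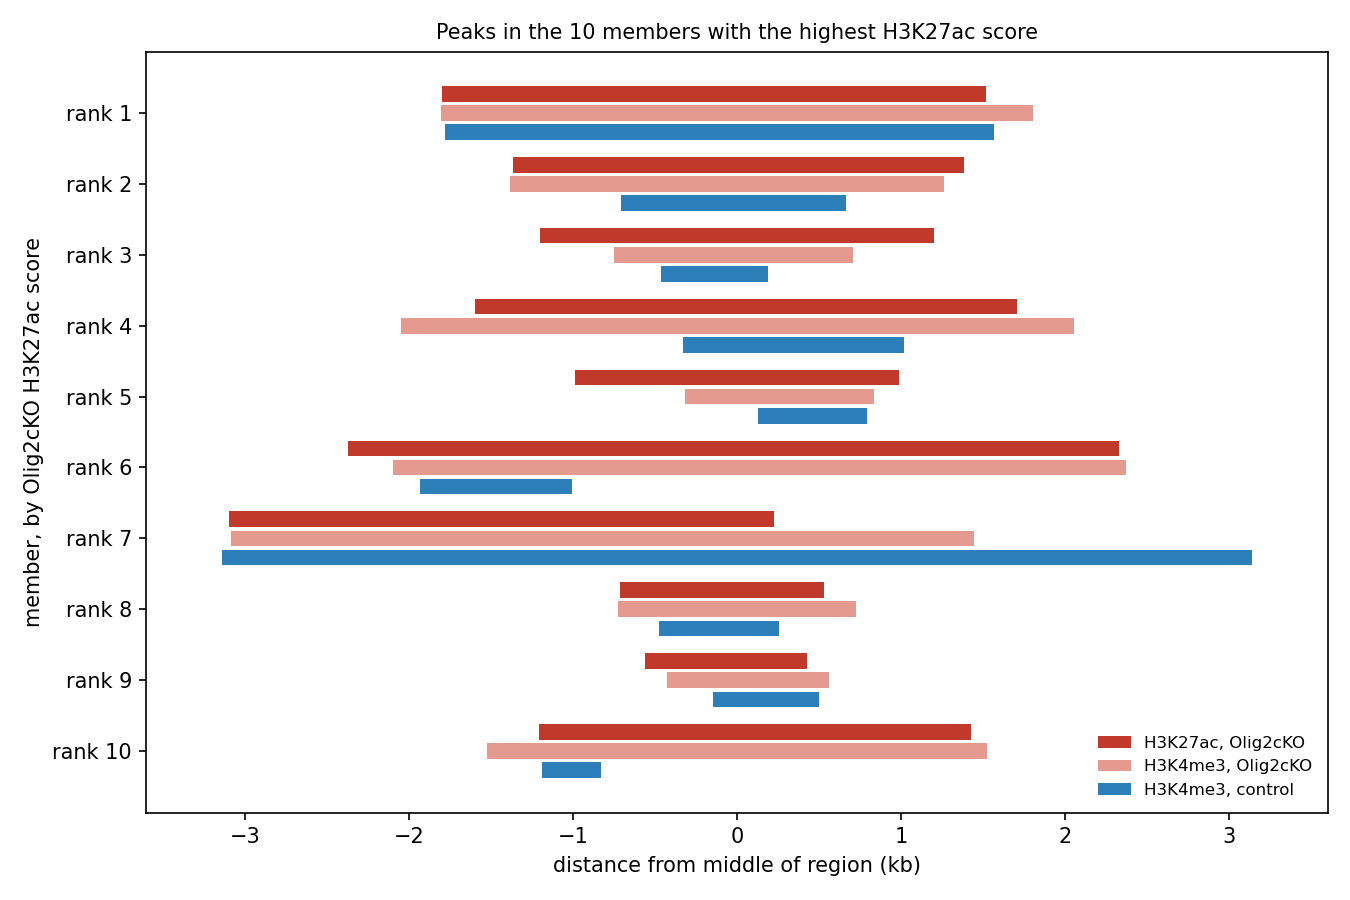
Listed peaks in the 10 members with the highest Olig2cKO H3K27ac score, ordered from the top, against the distance from the middle of the region in kb. Bars are H3K27ac in Olig2cKO (dark red), H3K4me3 in Olig2cKO (light red) and H3K4me3 in control tumours (blue). The blue bar is shorter than the light red one at 9 of 10 sites, where 90.5% of all members had wider H3K4me3 in Olig2cKO tumours.

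The 5 members with the highest control H3K4me3 score stood at the top of the control list, where ranks have little room to rise. They lay at chr17:84583998-84585294, chr11:20991864-20995983, chr1:137663006-137665629, chr8:124806666-124809259 and chr12:112404997-112407846. Their control percentiles were 94.3 to 99.6 and their Olig2cKO percentiles 81.5 to 95.5, lower in Olig2cKO tumours at all 5. Near the share over all members (90.5%), H3K4me3 was wider in Olig2cKO tumours at all 5. Their acetylated peaks scored 85.1 to 139.7, and a control H3K27ac peak lay 0.392 to 0.714 kb from each of them. Olig2 peaks were also near, 0.137 to 1.85 kb away. The choice by control score favours a lower Olig2cKO percentile, so that direction only describes these members. In the highest of the 10 control score classes the median percentile difference was 0.0355 points in members. It was -0.371 in regions acetylated in both, -1.16 in the mirror class and -1.24 in neither.

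The largest gains of H3K4me3 width were found at chr2:22476484-22482879, with 6396 bp in Olig2cKO and 683 bp in control tumours, and at chr9:96611807-96620058, with 6540 bp in Olig2cKO and 2179 bp in control tumours. Next came chr14:102238656-102244148, with 5390 bp in Olig2cKO and 1344 bp in control tumours, and chr19:6163570-6168444, with 4698 bp in Olig2cKO and 893 bp in control tumours. The fifth, at chr2:135882370-135888439, had 6070 bp in Olig2cKO and 2407 bp in control tumours. Their H3K4me3 percentiles were higher in Olig2cKO tumours by 0.511 to 30.5 points, so a large gain in width did not always come with a large gain in rank. The 5 largest losses were smaller, with differences (Olig2cKO minus control) of -2007 to -844 bp, and the largest lay at chr4:3008631-3011771, with 1134 bp in Olig2cKO and 3141 bp in control tumours.

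Members lay apart from control acetylation by a wide range of distances. The nearest control H3K27ac peak was a median of 10803.5 bp away, within 1 kb for 235 members (12.5%, 11.1 to 14.1), within 5 kb for 582 (31.0%, 28.9 to 33.2) and within 50 kb for 1582 (84.3%, 82.6 to 85.9). With every list cut to its upper 50% the share within 5 kb was 18.1%, and with a strong acetylated peak required it was 19.9%. Among regions acetylated in neither genotype, measured on the whole lists, a control H3K27ac peak lay within 5 kb for 29.4% (28.3 to 30.5). In the mirror class an Olig2cKO H3K27ac peak lay within 5 kb for 43.8% (40.3 to 47.2), from a list that is longer. The distance grew with the strength of acetylation in members, to a median of 16919 bp in the group with the highest scores, against 8488 bp in that with the lowest.

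Overlap with Olig2 was barred by the rule, and the distance beyond it was not. The nearest Olig2 peak of control tumours was a median of 16525 bp from members, 16588.5 bp from regions acetylated in neither, 13265 bp from regions acetylated in both and 12644 bp from the mirror class. It lay within 10 kb of 679 members (36.2%, 34.0 to 38.4), against 36.3%, 41.1% and 41.5% of these classes in the same order. With each list, Olig2 included, cut to its upper 50%, the share of members was 19.5%. Beyond 100 kb from any Olig2 peak lay 169 members (9.01%, 7.75 to 10.4), against 7.94%, 4.56% and 6.49%. Before the exclusion, Olig2 peaks overlapped 36.9% (35.2 to 38.7) of regions with H3K4me3 in both genotypes that were acetylated in Olig2cKO tumours alone, 27.3% of those acetylated in neither, 74.4% of those acetylated in both and 53.3% of those acetylated in control tumours alone. These shares belong to Olig2 as bound in control tumours.

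The members farthest from Olig2 differed in their distance from control acetylation. The farthest, at chr7:11065591-11066660, was 1529 kb from an Olig2 peak. It was 12.9 kb from control H3K27ac and close to the score threshold, with an H3K27ac score of 50.9. The next lay at chr15:20378232-20382216 and chr4:36897612-36901093, at 1204 and 1129 kb from Olig2 and 517.9 and 660.5 kb from control H3K27ac. Another, at chr15:16657599-16661340, was 1070 kb from Olig2 and 1069 kb from control H3K27ac, and carried H3K4me3 over 3581 bp in Olig2cKO and 1931 bp in control tumours. The fifth lay at chr8:30327357-30330063. H3K4me3 was wider in Olig2cKO tumours at all 5.

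Other acetylation around members held nearly the same share of Olig2cKO-only peaks as the whole list. Within 50 kb of members, outside the member itself, 2368 of 7381 Olig2cKO H3K27ac peaks (32.1%) had no control partner, against 31.1% over the whole list. Around regions acetylated in neither it was 29.3%, around the mirror class 28.0% and around regions acetylated in both 27.02%, where a peak near several regions counts for each. Control H3K27ac peaks around members had no Olig2cKO partner in 17.4% of cases, against 17.9% over the whole control list and 20.8% around the mirror class. Shares near the list's own are no result about the members.

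Most members had no other member nearby. Members neighboured one another somewhat more often than their share of regions, as the other classes did, so this was not particular to them. The nearest other H3K4me3 region without Olig2 was itself a member for 273 of 1876 (14.6%, 12.99 to 16.2), where members made up 12.5% of such regions. The nearest such region was of the same class for 46.1% of regions acetylated in both, 48.2% in neither and 6.25% in the mirror class. These classes made up 39.5%, 42.5% and 5.53% of such regions. In the alternative that asked for a strong acetylated peak the share for members was 7.04%, where members made up 3.86%. Joined over gaps of up to 100 kb, members formed 1649 groups, of which 1456 held a single member, 166 held 2 and 27 held 3 or more. The most in a group was 4, found in 7 groups. The first of these in chromosome order lay at chr8:12346662-12431203 (84.5 kb). Its 4 members had H3K4me3 percentiles of 53.2, 84.7, 43.1 and 67.8 in Olig2cKO tumours, in order along the chromosome. In control tumours they were 17.3, 43.0, 27.3 and 20.4. H3K4me3 was thus higher in rank in Olig2cKO tumours at all 4, as it was at 1570 of all 1876 members (83.7%). The H3K27ac scores of these 4 in Olig2cKO tumours were 171.0, 58.8, 322.0 and 97.2.

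No chromosome stood far from the others. Members made up 11.02% (8.99 to 13.3) of the H3K4me3 regions without Olig2 on chromosome 7, the lowest share, and 14.9% (12.4 to 17.7) on chromosome 9, the highest, and these intervals overlap. Members outnumbered the mirror class on all 19 chromosomes, by 1.71 to 2.79 to 1. Over the 19 together this excess was not kept with lists of equal length, so the count of chromosomes adds no separate support. The median H3K4me3 percentile difference of members was above that of regions acetylated in neither, and above that of regions acetylated in both, on all 19. All chromosomes come from the same libraries, so this count adds no separate support either.

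Many members lay close to the threshold of the peak lists. Of 1876 members, 260 (13.9%) had an Olig2cKO H3K27ac score below 60 and 959 (51.1%) below 100. In the mirror class 159 of 832 regions had a control H3K27ac score below 60 and 484 below 100. These are larger shares than in members, but scores of the 2 lists are not scaled to each other. As percentiles of their own lists, the medians were 23.8 in the mirror class and 29.1 in members. The 3 members with the lowest Olig2cKO H3K27ac scores, 50.0 to 50.02, lay at chr7:52207053-52208851 and chr7:126669542-126670763, and at chr13:61905026-61906609. Just outside the rule, the 3 regions acetylated in both genotypes with the lowest control H3K27ac score (50.1 each) lay at chr1:34466154-34467146, chr5:74293908-74295295 and chr12:4554314-4555927. Of the regions acetylated in both, 306 (5.15%) had a control H3K27ac score below 60. The 3 members nearest to a control H3K27ac peak lay at chr9:108209171-108212797, chr16:30599124-30603437 and chr6:97435889-97437963, at 7, 34 and 47 bp.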

How the data were processed

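ChIP-seq peak lists of 5 libraries were used. CASAVA, Bowtie2, MACS and the mouse build mm9 are named per the submitters' processing notes, without versions or settings, and whether an input library was used is not stated there. The deposited lists hold, for each peak, its position and the authors' peak score. The lowest score of each list is 50.0 to 50.02, where −10 times the base 10 logarithm of a p-value of 1e-05 stands. Scores are not scaled between libraries, so they were used as ranks within a list. The depth of each library is unknown, and list length may follow it.

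Merging and measurement used pandas 2.3.3 and numpy 2.4.6 (Python 3.11.15). The 89204 regions and the 33225 with an Olig2 peak (at least 1 bp of overlap) were the same with bedtools 2.31.1. On 25402 simulated sites 100% of the classes were recovered, and a simulated width gain of 300 bp was recovered as 300 bp. These sites lay apart, with at most 1 peak per list and a constant gain. Their recovery checks the code and not class calls near the threshold. Where a region held several peaks of a list, the highest score was taken and widths were summed. Where no peak is listed, a mark below the calling threshold may still be present. Shares carry exact binomial intervals and medians order-statistic intervals (scipy 1.17.1), which cover counting error only, and neighbouring regions are not independent. Figures were drawn with matplotlib 3.10.9.

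The members, comparison classes and named regions were chosen with earlier results of these data known. Regions were named as the 10 members with the highest Olig2cKO H3K27ac score, the 5 highest in control H3K4me3 score, gain and loss of H3K4me3 width and distance from Olig2, the group with most members, and 3 on each side of a threshold. Gene positions on mm9 and sequences were not used here, so the planned gene lists were not run. The genotype of both groups is given in part, and the rest of it is not reported here.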

Additional observations from a re-analysis of the deposited data

How the results depend on the processing

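In all 7 alternatives, 6 planned and 1 added after seeing the data, members had the highest median of the 4 classes in H3K4me3 percentile difference and in width difference. Their larger number than the mirror class held in 6 and not with lists of equal length. Members were chosen anew in each alternative from the same libraries, so the alternatives are not independent. With the upper 50% of each list, 122 of the 1876 members (6.50%) were among those that met the rule.

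With the lists of a mark cut to equal length, there were 1239 members, with 8.57% of regions acetylated in Olig2cKO tumours alone and 8.72% in control tumours alone. The H3K4me3 differences were 11.3 points and 323 bp, and the H3K27ac percentile was 27.2. Control H3K27ac lay within 5 kb of 27.6%, Olig2 within 10 kb of 33.3%, and the nearest region was a member for 11.46%. With the upper 50% of each list there were 1059 members (10.1%), differences of 10.3 points and 251 bp, an H3K27ac percentile of 26.2, 92.8% with the acetylated midpoint inside control H3K4me3, and 18.1%, 19.5% and 12.5% for the neighbouring peaks and regions in the order above. With Olig2 sites kept there were 2973 members (8.08%, and 4.84% in control alone), 10.7 points, 273 bp, a percentile of 30.7, and 34.5%, 59.7% and 12.3%. With peaks up to 1 kb apart merged, the share was 13.01%, the differences 14.5 points and 316 bp, the percentile 30.9, the midpoint share 82.8%, and control H3K27ac and Olig2 were near 20.7% and 32.1%. With no control H3K27ac peak within 1 kb, the shares were 10.9% and 4.40% (control alone), the difference 14.7 points, and the near shares 21.1% and 32.4%. With 50% overlap of the acetylated peak, the midpoint share was 91.9%.

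In the added alternative, which asked that the acetylated peak lie in the upper 50% of its list, 412 members (3.86%) and 1.10% in control alone were left, with 20.5 points, 361.5 bp, a percentile of 62.4 by construction, a midpoint share of 82.8%, and 19.9%, 29.6% and 7.04% for the neighbouring peaks and regions. The mirror class was then at -3.07 points (-6.91 to 0.376) and -28 bp (-104 to 42), and both intervals take in negative and positive values. With equal lists it was at -1.40 points (-2.10 to -0.849) but at 112 bp (92 to 127) in width. Its own direction was thus not fixed, and the cause was not tested. No paired analysis was possible because each group had 1 library. Unknown read depth limits every statement on missing peaks.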

Other observations

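Chromosome X lay outside the rule. Of its 618 regions with H3K4me3 in both genotypes and no Olig2, 55 (8.90%, 6.77 to 11.4) were acetylated in Olig2cKO tumours alone and 45 (7.28%, 5.36 to 9.62) in control tumours alone, and these intervals overlap. Another 287 (46.4%) were acetylated in both genotypes and 231 (37.4%) in neither.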
